A study of Sus scrofa with 599 samples.

Results

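The genes described here are 10 pig genes that mark lipid-associated macrophages, namely SPP1, TREM2, GPNMB, ACP5, ATP6V0D2, CD68, LGALS3, CTSK, CD9 and LIPA, out of 21280 protein-coding genes (PCGs) in the expression table. They were taken by symbol and chosen by measured values in part, since SPP1, ATP6V0D2 and ACP5 rose from the normal diet to weight gain in these same samples. The members' difference between the normal diet and weight gain is therefore a description, and the calls listed for it are not read as a test. Of the 10, 9 had expression values. CTSK was not matched to a row of expression values, so it was described by its promoter sequence and chromatin only. As a description, SPP1, TREM2, GPNMB, ACP5, ATP6V0D2, LGALS3 and CD9 had higher medians with weight gain in all 4 tissues. CD68 and LIPA had higher medians in some tissues only. Between weight gain and weight loss 1 of 36 member tests passed. Most pairs of members were correlated from library to library within weight gain, and the share of such pairs over all PCGs was not counted.

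RNA was measured in bulk in adult female Bama miniature pigs from 4 adipose tissues (ATs): greater omentum (GOM), mesenteric (MAD) and retroperitoneal (RAD) AT, which are visceral, and the upper layer of backfat (ULB), which is subcutaneous. The NC pigs ate a normal diet, the WG pigs gained weight on a high-fat diet, and the WL pigs were pigs that had first gained weight on that diet and were then put on caloric restriction. The RNA set held 9 NC, 45 WG and 10 WL libraries of GOM, 12, 36 and 10 of MAD, 12, 39 and 10 of RAD, and 5, 38 and 10 of ULB, 236 in all, and Hi-C (240 samples) and H3K27ac ChIP-seq were made in the same ATs. Several ATs came from the same pigs, and the labels do not say that a replicate number marks a pig.

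Lipid-associated macrophages are the macrophages that gather around enlarged or dying adipocytes, take up the released lipid and break it down in lysosomes. TREM2 is the lipid receptor that drives this state through the adaptor TYROBP, and the state is marked by a secreted matrix protein (SPP1, osteopontin), lectins and membrane proteins (LGALS3, GPNMB, CD9, CD68) and the enzymes and proton pump of the lysosome (ACP5, LIPA, CTSK, ATP6V0D2). Several of these genes are shared with osteoclasts, the bone-resorbing cells of the same lineage, and CD9, LGALS3 and LIPA are also expressed in other cells of adipose tissue.

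The promoters of 6 members are shown because their levels or chromatin moved most across the diets (SPP1, ACP5, ATP6V0D2 and LGALS3) or because they are the lipid receptor and the general macrophage marker (TREM2 and CD68). Each sequence runs 5′ to 3′ on the gene's strand from 280 bases before to 20 bases after the start of the RefSeq gene on Sscrofa11.1, in lower case, with matches to the searched motifs in capitals. SPP1 lies at chr8:131085315-131085614, TREM2 at chr7:36471490-36471789, ACP5 at chr2:70209836-70210135 and ATP6V0D2 at chr4:50749354-50749653, all on the minus strand. CD68 lies at chr12:52874474-52874773 and LGALS3 at chr1:184478359-184478658, both on the plus strand.
SPP1: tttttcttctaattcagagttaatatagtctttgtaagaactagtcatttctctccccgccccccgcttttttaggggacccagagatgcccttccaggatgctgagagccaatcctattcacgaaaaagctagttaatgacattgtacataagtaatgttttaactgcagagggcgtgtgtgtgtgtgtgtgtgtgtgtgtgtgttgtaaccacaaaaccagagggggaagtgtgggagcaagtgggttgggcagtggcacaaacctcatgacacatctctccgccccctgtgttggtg
TREM2: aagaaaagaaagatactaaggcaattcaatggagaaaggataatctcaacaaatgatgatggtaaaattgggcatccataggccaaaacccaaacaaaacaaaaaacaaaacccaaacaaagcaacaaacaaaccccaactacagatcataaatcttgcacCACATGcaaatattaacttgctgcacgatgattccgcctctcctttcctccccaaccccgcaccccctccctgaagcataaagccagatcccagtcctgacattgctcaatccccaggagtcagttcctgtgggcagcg
ACP5: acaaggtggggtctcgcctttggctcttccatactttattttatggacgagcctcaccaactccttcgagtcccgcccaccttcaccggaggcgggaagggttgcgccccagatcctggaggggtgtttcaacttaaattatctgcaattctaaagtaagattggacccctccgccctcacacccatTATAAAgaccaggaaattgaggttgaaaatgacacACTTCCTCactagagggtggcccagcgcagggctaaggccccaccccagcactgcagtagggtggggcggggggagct
ATP6V0D2: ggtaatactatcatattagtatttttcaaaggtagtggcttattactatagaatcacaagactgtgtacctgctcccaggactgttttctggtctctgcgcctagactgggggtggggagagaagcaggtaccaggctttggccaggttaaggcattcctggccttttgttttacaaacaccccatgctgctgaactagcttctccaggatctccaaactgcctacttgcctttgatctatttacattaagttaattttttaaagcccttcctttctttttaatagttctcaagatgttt
CD68: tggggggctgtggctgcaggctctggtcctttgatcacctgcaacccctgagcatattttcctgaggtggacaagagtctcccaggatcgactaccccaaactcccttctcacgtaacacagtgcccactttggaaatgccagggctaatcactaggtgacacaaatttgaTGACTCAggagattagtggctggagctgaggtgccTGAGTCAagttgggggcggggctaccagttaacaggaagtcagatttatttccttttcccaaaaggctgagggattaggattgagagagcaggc
LGALS3: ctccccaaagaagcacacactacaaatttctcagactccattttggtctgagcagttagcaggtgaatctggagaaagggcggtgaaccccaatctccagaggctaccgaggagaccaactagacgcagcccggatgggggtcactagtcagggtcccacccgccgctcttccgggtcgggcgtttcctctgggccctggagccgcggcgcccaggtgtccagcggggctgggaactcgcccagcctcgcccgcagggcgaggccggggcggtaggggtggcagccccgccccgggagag
The motifs searched on both strands were the E-box CACGTG, the M-box CATGTG bound by the MiT family of lysosomal and osteoclast factors, the AP-1 site TGANTCA, the PU.1 site GAGGAAGT and the TATA box TATAAA. In these windows TREM2 held an M-box, ACP5 held a TATA box and a PU.1 match, CD68 held 2 AP-1 matches, and SPP1, ATP6V0D2 and LGALS3 held none. Of the members not printed, CTSK held 2 M-box matches and a TATA box, GPNMB held an AP-1 match, and CD9 and LIPA held none. Among 19531 RefSeq promoters of the same length, 7.79% held the E-box, 10.5% the M-box, 6.23% the AP-1 site, 2.09% the PU.1 site and 11.5% the TATA box. The windows of LGALS3, CD9 and LIPA held 21, 31 and 30 CpG dinucleotides, and the other 7 held 1 to 10. A match describes the letters of the window and does not show that a factor binds there.

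PCG counts ranged from 3337098 to 22939420 per library with a median of 16791660. In 40 libraries PCGs took less than 88% of the summed TPM (a level scaled to transcript length and library), and these low-share libraries were unevenly spread: 17 of 38 NC, 6 of 158 WG and 17 of 40 WL, with 7 of the 9 NC GOM libraries among them. Adipocyte markers were high in every group, with group medians of the summed level from 7982 to 22827 TPM, although ADRB3 was under 0.5 TPM by its median in all groups. Macrophage markers (10 genes such as CSF1R, CD163 and C1QA) summed to medians of 1168, 480, 604 and 724 TPM in NC GOM, MAD, RAD and ULB, to 1579, 1099, 989 and 959 TPM in WG, and to 1709, 1367, 1144 and 1349 TPM in WL. Osteoclast markers summed to medians of 41.3 to 68.1 TPM and the defining marker CALCR was under 0.5 TPM by its median in all groups. In bulk tissue fewer cells of a type and less RNA per cell cannot be told apart, which holds for every expression value below.

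Levels of SPP1, the secreted matrix protein osteopontin, spanned the widest range in TPM. From lowest to highest with the median between, it measured 45.9, 78.3 and 318 TPM in NC GOM, 10.7, 44.2 and 209 TPM in NC MAD, 16.9, 85.0 and 411 TPM in NC RAD, and 51.4, 73.5 and 187 TPM in NC ULB. In WG it measured 37.1, 409 and 2370 TPM in GOM, 40.5, 403 and 1896 TPM in MAD, 58.4, 540 and 1516 TPM in RAD, and 78.5, 265 and 1765 TPM in ULB. In WL it measured 44.6, 294 and 963 TPM in GOM, 161, 396 and 1107 TPM in MAD, 92.8, 372 and 1772 TPM in RAD, and 45.5, 232 and 826 TPM in ULB. The NC and WG ranges overlapped in every AT, but 27 of 45 WG GOM, 28 of 36 WG MAD, 23 of 39 WG RAD and 27 of 38 WG ULB libraries lay above the highest NC library of their AT.

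TREM2, the lipid receptor, was ranked 7 or 8 of the 9 members by median TPM in every group. In NC its lowest, median and highest levels were 2.95, 5.42 and 21.3 TPM in GOM, 1.14, 2.45 and 7.90 TPM in MAD, 0.446, 2.21 and 6.87 TPM in RAD, and 1.39, 3.31 and 4.93 TPM in ULB. In WG they were 2.08, 9.99 and 29.4 TPM in GOM, 1.86, 9.65 and 40 TPM in MAD, 1.83, 7.94 and 62.4 TPM in RAD, and 1.24, 6.36 and 20.4 TPM in ULB. In WL the medians were 10.5, 9.10, 5.76 and 5.39 TPM in the same order. The median was therefore lower in NC than in WG and WL in each AT, with overlapping ranges.

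ACP5 encodes tartrate-resistant acid phosphatase, a lysosomal enzyme of osteoclasts and activated macrophages. In NC its lowest, median and highest levels were 1.72, 4.10 and 7.82 TPM in GOM, 0.80, 4.03 and 11.08 TPM in MAD, 1.14, 3.57 and 11.2 TPM in RAD, and 2.08, 8.68 and 24.1 TPM in ULB. In WG they were 1.83, 21.5 and 188 TPM in GOM, 2.33, 15.1 and 110 TPM in MAD, 3.54, 26 and 173 TPM in RAD, and 4.11, 17.1 and 117 TPM in ULB. In WL they were 7.70, 25.8 and 83.8 TPM in GOM, 8.42, 56.9 and 246 TPM in MAD, 7.43, 22.3 and 55.5 TPM in RAD, and 5.37, 15.6 and 64.3 TPM in ULB. ULB was the AT with the highest NC median of ACP5, and 36 of 45, 20 of 36, 29 of 39 and 11 of 38 WG libraries of GOM, MAD, RAD and ULB exceeded the highest NC library.

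ATP6V0D2, a tissue-restricted subunit of the V-ATPase proton pump, was the lowest member in every group. It was above 0.5 TPM in 199 of 236 libraries and listed at 0 in 7. In NC its lowest, median and highest levels were 0, 0.18 and 1.58 TPM in GOM, 0, 0.282 and 1.22 TPM in MAD, 0, 0.147 and 1.11 TPM in RAD, and 0.395, 2.03 and 3.24 TPM in ULB. In WG they were 0.249, 2.43 and 21.8 TPM in GOM, 0.128, 2.23 and 18.3 TPM in MAD, 0.237, 4.61 and 25.0 TPM in RAD, and 0.570, 2.37 and 23.5 TPM in ULB. The WL medians were 2.5, 4.68, 2.13 and 1.65 TPM. NC ULB thus stood above the other NC groups by its median, and 34 of 39 WG RAD but 15 of 38 WG ULB libraries lay above the highest NC library of their AT. The gene passed the filter on low values through WG, WL or ULB libraries, where it was high, and was not tested between the 3 visceral ATs of NC.

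The other 5 members with expression values were abundant in every group. GPNMB, a transmembrane glycoprotein of lysosomes and melanosomes, had medians of 178, 118, 104 and 172 TPM in NC GOM, MAD, RAD and ULB, of 280, 323, 343 and 263 TPM in WG, and of 265, 402, 228 and 214 TPM in WL. LGALS3, the galactoside-binding lectin galectin-3 that is recruited to damaged lysosomes, had medians of 88.5, 34.7, 42.6 and 107 TPM in NC, 126, 96.9, 122 and 138 TPM in WG, and 144, 98.0, 76.2 and 119 TPM in WL. CD68, a lysosomal membrane protein and general macrophage marker, had medians of 54.3, 16.5, 23.9 and 26.9 TPM in NC, 34.4, 32.9, 29.1 and 29.5 TPM in WG, and 26.8, 49.1, 20.7 and 20.4 TPM in WL. It was the member whose NC GOM median lay above those of both WG GOM and WL GOM.

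CD9, a tetraspanin of the cell membrane, had medians of 139, 116, 97 and 335 TPM in NC, 304, 217, 238 and 397 TPM in WG, and 410, 225, 236 and 407 TPM in WL. All 10 WL RAD libraries (161 to 465 TPM) lay above all 12 NC RAD libraries (41.5 to 155 TPM). This was the single one of 108 comparisons of a member between diet groups of 1 AT in which the ranges did not overlap. The share of all PCGs with ranges that do not overlap was not counted, and 26.7% of PCGs were called between NC RAD and WL RAD. Nothing particular to CD9 is therefore read from it. LIPA, the lysosomal acid lipase that frees cholesterol and fatty acids from taken-up lipid, had medians of 196, 212, 253 and 182 TPM in NC, 239, 290, 300 and 171 TPM in WG, and 223, 237, 246 and 227 TPM in WL. Its group medians ran from 171 to 300 TPM, the narrowest relative span among the members.

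**Figure D1:**
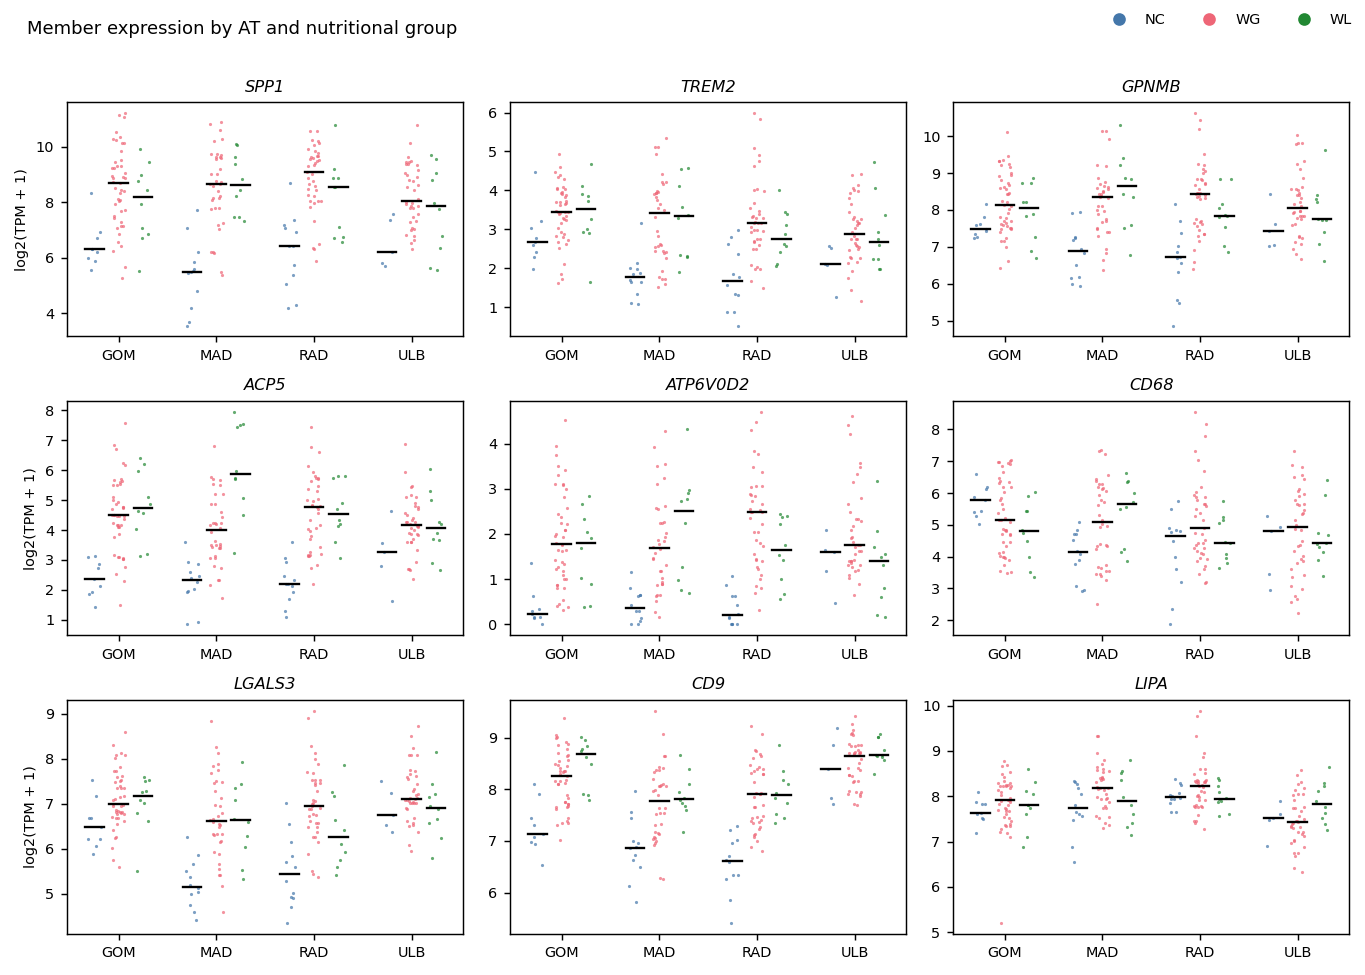
Levels of the 9 members with expression values, 1 panel per member, on a log2(TPM + 1) axis, with 1 point per library in NC (blue), WG (red) and WL (green) of each AT and a black bar at each group's median. SPP1 reached 2370 TPM in WG GOM, ATP6V0D2 medians were 0.147 to 0.282 TPM in the visceral NC groups, and the colours overlap in every panel.

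Between NC and WG the members' log2 fold changes are given as a description, since the members were chosen in part for this contrast. A gene was called where the edgeR adjusted p over all PCGs tested was below 0.05 and the fold change above 1.5. By this rule 4 of 9 members were called higher in WG GOM (12.2% of all PCGs tested), 8 of 9 in WG MAD (5.38%), 7 of 9 in WG RAD (7.1%) and 0 of 9 in WG ULB (0.507%), and none lower. The members were chosen in part on these values, so these counts describe the choice and nothing is read from them. For ULB 2 members had an unadjusted p under 0.05, 1 was called by DESeq2, and the NC group held 5 libraries. The median log2 fold change of the members was 0.55, 1.47, 1.56 and 0.74, against medians between -0.01 and 0.01, as rounded, over all PCGs in each AT.

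In GOM the called members were ATP6V0D2 (log2 fold change 3.20 ± 0.71, SE), ACP5 (2.53 ± 0.54), SPP1 (2.19 ± 0.57) and CD9 (0.69 ± 0.22), and CD68 was the member with a value below -0.4 (-0.47, not called). With the low-share libraries left out, 2 NC GOM libraries remained and no member was called in edgeR, with values of 4.26 ± 1.63 for ATP6V0D2, 3.02 ± 1.27 for SPP1, 2.64 ± 1.16 for ACP5 and 1.22 ± 0.49 for CD9 and 4 members at an unadjusted p under 0.05. In MAD the largest values belonged to ATP6V0D2 (3.04), SPP1 (2.93) and ACP5 (2.11). TREM2 (1.79), LGALS3 (1.47), GPNMB (1.24), CD68 (1.15) and CD9 (0.73) followed. In RAD the largest values belonged to ATP6V0D2 (3.92), ACP5 (2.71) and SPP1 (2.21). TREM2 (1.78), GPNMB (1.56), LGALS3 (1.31) and CD9 (1.18) followed. LIPA was not called in any AT, with values of -0.04 in GOM, 0.25 in MAD and 0.05 in RAD. In ULB SPP1 (1.88), ATP6V0D2 (1.26), ACP5 (1.04) and TREM2 (1.03) had the largest values.

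The same contrast is given for the genes around the members, again without p. Of 8 partners of TREM2 (its adaptor, kinase and ligands), 1, 4, 5 and 0 were called higher in WG GOM, MAD, RAD and ULB, and none lower. APOE, a lipoprotein ligand of TREM2, had a value of 1.63 in GOM and 0.65 in RAD, the adaptor TYROBP 1.23 in MAD and 0.94 in RAD, and the kinase SYK 1.10 in MAD and 0.84 in RAD. Of 8 receptors of osteopontin (integrins and CD44) 0, 2, 0 and 1 were called higher, namely ITGA4 (0.91) and CD44 (0.69) in MAD and ITGA4 (0.65) in ULB.

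Of 19 lysosomal hydrolases and membrane proteins 5, 8, 9 and 0 were called higher in WG GOM, MAD, RAD and ULB, led in all 3 visceral ATs by the cysteine protease CTSS (1.23, 1.41 and 1.46), with medians over the 19 genes of 0.40, 0.51, 0.54 and 0.11. Of 12 further V-ATPase subunits, which make the ubiquitous part of the pump, 5, 0, 2 and 0 were called higher, among them ATP6V0B (1.3 in GOM and 0.83 in RAD) and TCIRG1 (0.96 and 0.71), the subunit of osteoclast and lysosomal pumps. Of 11 lipid-handling genes 7, 3, 4 and 1 were called higher, among them the lipid droplet coat gene PLIN2 (1.51, 1.15 and 1.05 in GOM, MAD and RAD), the scavenger receptor MSR1 (1.03, 2.08 and 1.57) and the cholesterol esterifying enzyme SOAT1 (1.10 in MAD, 1.08 in RAD and 0.83 in ULB). Of 7 transcription factors of lysosomes and lipid, TFEC was called higher in MAD (1.27), RAD (0.92) and ULB (0.92) and TFEB in GOM (0.69) and RAD (0.74), NR1H3 was higher in GOM (0.62), and BHLHE40 (-0.80, GOM) and BHLHE41 (-0.74 in GOM and -0.68 in RAD) were lower.

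Other macrophage genes moved with the members in MAD most of all. All 9 tested macrophage markers were called higher in WG MAD and 5 of 9 in WG RAD, while in GOM 0 of 10 were called higher and 1 lower and in ULB 0 of 9 were called in edgeR, 0 reaching an unadjusted p under 0.05, and the medians were 0.95 in MAD, 0.60 in RAD, 0.13 in GOM and 0.23 in ULB. Of 9 resident macrophage genes 6 were called higher in MAD, 2 in RAD and 2 in GOM, while TIMD4, a phosphatidylserine receptor of resident macrophages, was lower in GOM (-2.03) and higher in MAD (1.55), and LYVE1 was lower in ULB (-1.11). Among monocyte and inflammatory genes the chemokines CCL2 (1.20 and 0.73) and CXCL8 (1.15 and 0.96) were called higher in MAD and RAD and were not called in GOM or ULB. The part of these other macrophage genes, which may lie in the same or in other cells, in the members' values was not tested.

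Of the remaining marker lists between NC and WG, 2 of 6 osteoclast markers were called higher in GOM and 2 of 5 in MAD and in RAD, with medians of 0.14, 0.46 and 0.34. Neutrophil markers counted 1 of 3 higher in each visceral AT, endothelial markers 1 of 4 in GOM, and fibroblast and progenitor markers 2 of 6 in GOM, 2 of 6 in MAD, and 1 higher and 1 lower in RAD. Smooth muscle markers were 2 of 4 lower in MAD and 3 of 4 higher in RAD, and adipocyte markers 3 of 6 higher in GOM and 1 higher and 1 lower in MAD and in RAD. T cell markers were 1 of 5 higher in MAD and in ULB, B cell markers 2 of 2 lower in GOM and 1 of 2 lower in RAD, and of the single tested markers the mesothelial one was lower in GOM and the skeletal muscle one in GOM and MAD. In ULB 2 of 6 fibroblast and progenitor markers were lower.

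Caloric restriction after weight gain was compared with weight gain in each AT, which uses the same WG libraries as the contrast above. SPP1, ATP6V0D2 and ACP5 were chosen in part for high levels in these libraries. A fall of these members from WG is therefore a description, and a call of it is not read as a test. Of 36 member tests 1 passed, that of ACP5, which was higher still in WL MAD than in WG MAD (log2 fold change 2.28 ± 0.40, adjusted p 3.35e-05, n = 36 and 10). In GOM, RAD and ULB 0 of 9 members were called by edgeR, with 0, 4 and 1 at an unadjusted p under 0.05, and DESeq2 called 0, 1 and 0, the 1 being ATP6V0D2 in RAD. Over all PCGs tested 5.26%, 17.4%, 6.37% and 8.12% were called in either direction in GOM, MAD, RAD and ULB. The members' median log2 fold change was -0.18, 0.01, -0.69 and -0.37, against -0.04, -0.02, -0.01 and -0.02 over all PCGs.

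RAD was the AT in which all 9 members had values below 0 from WG to WL, although none passed the test. ATP6V0D2 had -1.26 (edgeR adjusted p 0.079), CD68 -1.16 (adjusted p 0.109), TREM2 -0.79, GPNMB -0.70 (adjusted p 0.144), LGALS3 -0.69 (adjusted p 0.119) and SPP1 -0.50. DESeq2 gave -1.28 with an adjusted p of 0.0262 for ATP6V0D2 in RAD. In ULB ATP6V0D2 had -1.20 (edgeR adjusted p 0.122), and -2.07 with an adjusted p of 0.0293 once the low-share libraries were left out. Since ATP6V0D2 was chosen in part for its WG levels, these p-values for its fall are not read as a test.

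The rise of ACP5 in WL MAD came with lymphocyte RNA and rested in part on few libraries. WL MAD replicates 1, 6 and 7 held 180, 184 and 246 TPM of ACP5, and their B cell markers summed to 194, 579 and 319 TPM and their T cell markers to 288, 619 and 576 TPM. These 3 were also low-share libraries, and WG MAD replicate 31 was the only other library above 100 TPM of B cell markers (312 TPM, with 110 TPM of ACP5, the highest of WG MAD). WL MAD replicate 10 held 173 TPM of ACP5 with 14.6 TPM of B cell markers, and the other 6 WL MAD libraries held 8.42 to 61.8 TPM.

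Without the 4 libraries above 100 TPM of B cell markers the log2 fold change of ACP5 was 1.6 ± 0.40 (edgeR adjusted p 0.00825, n = 35 and 7). Without the low-share libraries it was 1.53 and did not pass the test (adjusted p 0.146, n = 34 and 4). All 5 T cell markers and all 5 B cell markers were called higher in WL MAD than in WG MAD, with median log2 fold changes of 2.29 and 2.41. Their part in the ACP5 result was not tested.

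The change of ACP5 from WG to WL differed between ATs in a single model over the 8 groups. Its change in MAD exceeded that in GOM by 2.19 (edgeR interaction adjusted p 0.0229, against 3.03% of PCGs called), that in RAD by 2.55 (RAD minus MAD -2.55, adjusted p 0.0045, 3.5%) and that in ULB by 2.36 (ULB minus MAD -2.36, adjusted p 0.00649, 7.55%), and these were 3 of 54 member tests that passed. Without the libraries rich in B cell markers the differences were 1.48, -1.83 and -1.65, and without the low-share libraries 1.04, -1.85 and -2.21, and in neither case did any of the 54 pass.

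Around the members, few genes of the fixed lists fell from WG to WL. LPL, the lipoprotein lipase of adipocytes and lipid-laden macrophages, fell in all 4 ATs by 1.17, 1.24, 0.91 and 0.75 on the log2 scale in GOM, MAD, RAD and ULB (edgeR adjusted p 8.54e-05, 1.06e-05, 0.00025 and 0.000225). ABCA1, the cholesterol exporter, rose in GOM (0.59), MAD (0.77) and RAD (0.92, adjusted p 6.49e-06), and its partner ABCG1 rose in MAD (0.88) and fell in ULB (-1.26). In the 19 lysosomal genes CTSD fell in GOM (-0.87) and RAD (-1.06) and LGMN in MAD (-0.70), and no other was called. Of the 12 V-ATPase subunits edgeR called 0 in each AT, with 0, 2, 2 and 0 at an unadjusted p under 0.05 and medians of -0.13 to -0.02. CD163 and F13A1, genes of resident macrophages, fell in GOM (-1.06 and -0.82) and MAD (-0.79 and -0.73), VSIG4 rose in ULB (0.79), and the macrophage markers counted 0 higher and 1 lower of 10 in GOM, 3 and 1 in MAD, 0 and 0 in RAD, and 1 and 0 in ULB.

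Of the TREM2 partners, SYK rose in WL MAD (0.63), MS4A7 fell in WL GOM (-0.67) and MS4A7 rose in WL ULB (0.90). Of the osteopontin receptors CD44 fell in WL GOM (-0.65) and ITGA4 rose in WL MAD (1.09), the AT in which T cell and B cell markers rose. S100A8, a calcium-binding protein of neutrophils and monocytes, fell in WL ULB (-2.08). VCAN fell in WL GOM (-0.68) and WL MAD (-1.15), TFEB rose in WL MAD (0.69), and BHLHE40 fell in WL RAD (-1.04) and WL ULB (-1.36).

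WL was also set against NC, which uses the NC libraries of the first contrast, so the counts are not independent of the choice of members. By the same rule 4 of 9 members were called higher and 1 lower in GOM, 8 higher in MAD and 6 higher in RAD, while in ULB edgeR called 0 of 9 with 1 at an unadjusted p under 0.05 and DESeq2 called 0. Over all PCGs tested 36.1%, 33.1%, 26.7% and 14.8% were called in either direction. The 3 members whose NC levels helped to choose the set are given as a description: ACP5 had values of 2.63 ± 0.43 in GOM, 4.42 ± 0.53 in MAD and 2.46 in RAD, SPP1 of 1.45, 2.81 and 1.72, and ATP6V0D2, which passed the filter on low values only through WL, of 2.55, 3.51 and 2.65. Of the other 6 members CD9 rose in all 3 (0.94, 0.75 and 1.08), TREM2 (1.71 and 0.99) and GPNMB (1.62 and 0.86) rose in MAD and RAD, and LGALS3 (1.29) rose in MAD. CD68 went in opposite directions: it fell in GOM (-1.15 ± 0.31, edgeR adjusted p 0.00356) and rose in MAD (1.33). Without the low-share libraries, which were 13 of the 19 GOM libraries, 3 members were called higher and 1 lower in GOM, 6 higher in MAD and 4 higher in RAD.

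**Figure D2:**
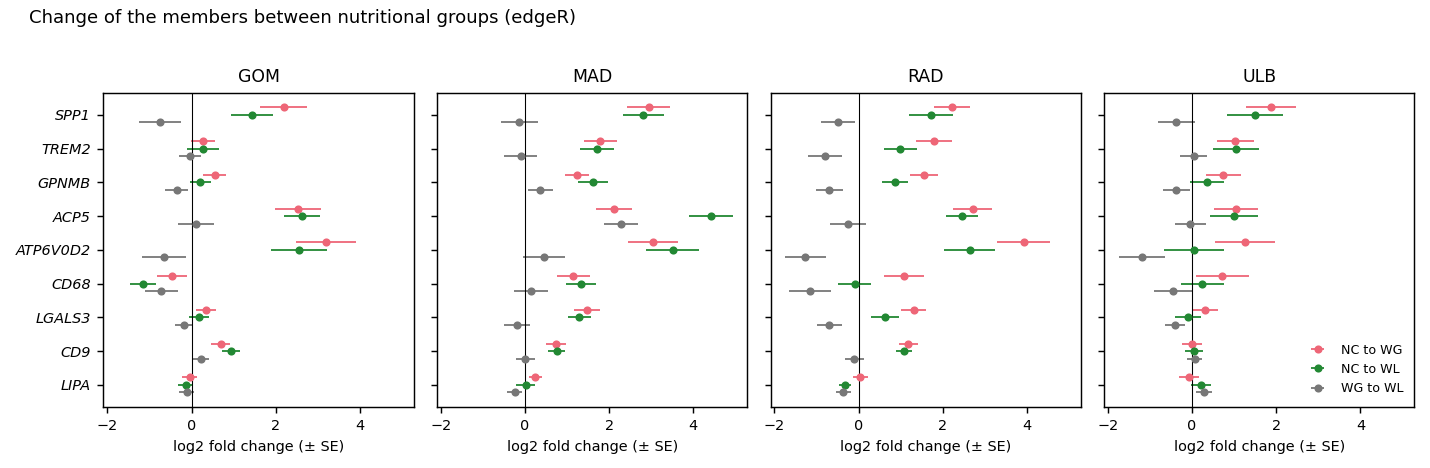
Log2 fold changes of the 9 members (edgeR, ± SE) in each AT from NC to WG (red), NC to WL (green) and WG to WL (grey), with a line at 0. In MAD the grey point of ACP5 stands at 2.28 and its green point at 4.42, and in RAD all grey points lie below 0.

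The ATs were compared with each other within each diet group, a contrast that was not used to choose the members. In NC 3 of 8 members tested were lower in MAD than in GOM, 4 of 8 were lower in RAD than in GOM, and none was higher. From GOM to MAD (17.7% of PCGs called in either direction) LGALS3 was lower by -1.37 on the log2 scale, CD68 by -1.67 and TREM2 by -1.44, and from GOM to RAD (19.5%) LGALS3 by -0.89, CD68 by -1.29, CD9 by -0.70 and TREM2 by -1.32. Between NC MAD and NC RAD (2.41%) edgeR and DESeq2 each called 0 of 8 members, 0 reaching an unadjusted p under 0.05.

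NC ULB differed from all 3 visceral ATs in CD9. It was higher in ULB than in GOM (1.07, 25.4% of PCGs called), MAD (1.5, 7.73%) and RAD (1.77, 4.32%). The values of ATP6V0D2 were 2.21 from GOM and 2.21 from MAD to ULB, which are a description, since the gene passed the filter on low values only through the NC ULB libraries. LGALS3 was higher in ULB than in MAD (1.61), CD68 was lower in ULB than in GOM (-1.42), and LIPA was lower in ULB than in RAD (-0.63). Of the 9 NC GOM libraries 7 were low-share libraries.

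In WG the called differences between ATs were those of CD9 and LIPA. From WG MAD to WG ULB (14.4% of PCGs called) CD9 was higher by 0.75 ± 0.14 and LIPA lower (-0.65 ± 0.12, edgeR adjusted p 4.11e-06), and from WG RAD to WG ULB (9.27%) CD9 was higher by 0.59 and LIPA lower (-0.73). Every same-numbered pair of WG MAD and WG ULB deviated together, and with the number as a block the values were 0.76 for CD9 and -0.70 for LIPA. In the other 4 pairs of WG ATs edgeR and DESeq2 each called 0 of 9 members, with 3, 1, 3 and 2 at an unadjusted p under 0.05 in GOM to MAD (6.27%), GOM to RAD (11.2%), GOM to ULB (17.9%) and MAD to RAD (5.4%).

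In WL the highest median of ACP5 was in MAD, and edgeR called 0 of 9 members between GOM and MAD, RAD or ULB (3, 1 and 0 at an unadjusted p under 0.05, 2, 0 and 0 called by DESeq2, with 5.97%, 12.2% and 16% of PCGs called). It was lower in RAD than in MAD (-1.87, edgeR adjusted p 0.0313, 7.31% of PCGs called) and lower in ULB than in MAD (-2.23, adjusted p 0.00885, 14.4%), and CD9 was higher in ULB than in MAD (0.78) and RAD (0.74, 4.34%). Without the libraries rich in B cell markers the ACP5 values were -0.94 (adjusted p 0.433) and -1.31 (adjusted p 0.132), and WG MAD then held less ACP5 than WG GOM (-0.77, adjusted p 0.0405) and WG RAD (RAD minus MAD 0.89, adjusted p 0.0154). Every same-numbered pair of WL MAD and WL RAD also deviated together. With the number as a block 3 members were lower in RAD than in MAD: ACP5 (-1.49, edgeR adjusted p 0.00593), CD68 (-0.92, adjusted p 0.02) and GPNMB (-0.67, adjusted p 0.0185).

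Within WG most members varied more between libraries than most genes, and most pairs of members varied together. The SD of log2 CPM of SPP1 over libraries was 1.45, 1.42, 1.22 and 1.15 in GOM, MAD, RAD and ULB, wider than that of 96.8% to 99.0% of PCGs, while that of LIPA was 0.48 to 0.56. In GOM the SDs of LIPA, CD9 and LGALS3 were wider than those of 45.2%, 47.7% and 54.4% of PCGs. The highest WG library exceeded the lowest 63.8-fold for SPP1 and 103-fold for ACP5 in GOM, and 144-fold for ATP6V0D2 in MAD. Of 144 pairs of members in 1 AT (36 in each), 123 were correlated at an adjusted p under 0.05 by a permutation test, 121 of them positively, with 27, 32, 35 and 29 in GOM, MAD, RAD and ULB. The median r over the pairs was 0.55, 0.66, 0.68 and 0.66, and the median r of members with all other PCGs was 0.02, 0.01, 0.00 and -0.01. The r with other PCGs spread widely in both directions. Its percentiles 5 and 95 were -0.52 and 0.57 in GOM, -0.50 and 0.56 in MAD, -0.52 and 0.59 in RAD, and -0.58 and 0.61 in ULB. How many pairs with other PCGs would pass the permutation test was not counted.

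TREM2 and CD68 were the pair with r of 0.79, 0.91, 0.92 and 0.86 in the 4 ATs, and in RAD Spearman's rho was 0.87 and r without the 2 libraries farthest from the median was 0.89. GPNMB and LGALS3 in RAD had an r of 0.92 (rho 0.90, r 0.89 without those 2), SPP1 and LGALS3 in MAD 0.92 (rho 0.91, r 0.91), and ACP5 and ATP6V0D2 in RAD 0.87 (rho 0.86, r 0.84). Each of these reached 1e-05, the smallest p that 100000 permutations can give. The points of each relation share their library, so that cell makeup, depth and RNA quality enter both genes.

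CD68 and CD9 formed the exception. In GOM they were negatively correlated (r -0.47, permutation p 0.00109, adjusted 0.00163, rho -0.44, n = 45, r -0.47 without 2 libraries), as in ULB (r -0.47, permutation p 0.00296, adjusted 0.00406, rho -0.49, n = 38, r -0.46 without 2 libraries). In GOM CD68 also showed r of 0.02 with SPP1, 0.30 with GPNMB, -0.16 with ACP5, 0.20 with ATP6V0D2, 0.13 with LGALS3 and 0.20 with LIPA, none of which passed. CD68 fell with the adipocyte marker sum in all 4 ATs, with r of -0.59, -0.45, -0.50 and -0.49.

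**Figure D3:**
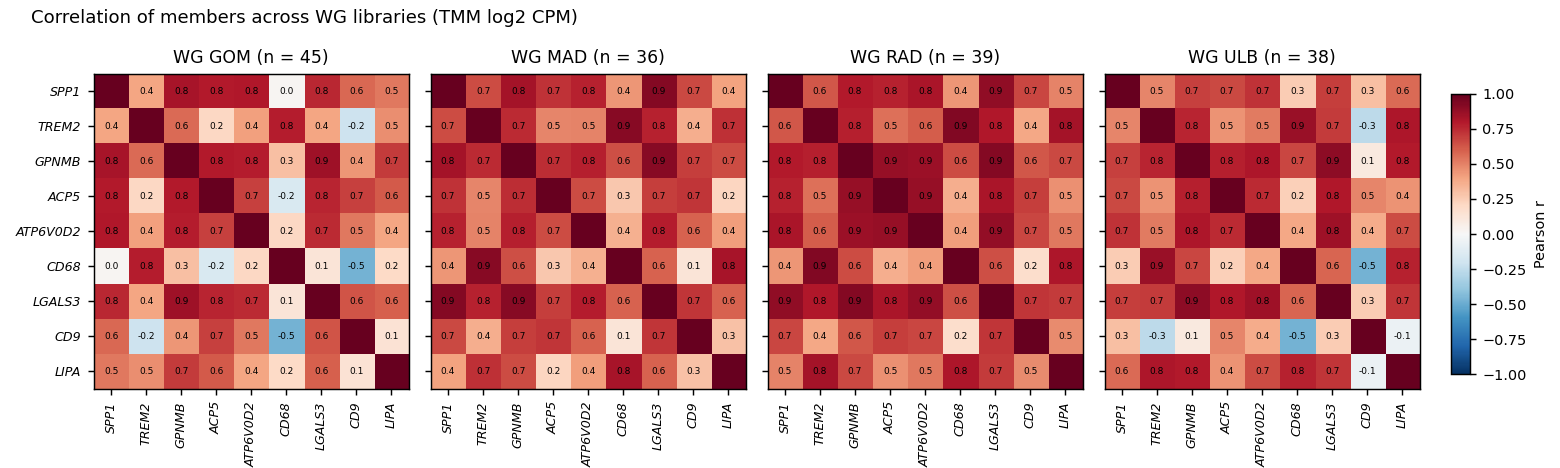
Pearson r between members across WG libraries, 1 heat map per AT (n = 45, 36, 39 and 38), from log2 CPM. Most cells are positive, with medians of 0.55 to 0.68, and the cells of CD68 with CD9 in GOM and ULB stand at -0.47.

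The PCGs most like the members in this variation were ranked by their mean r over the 4 ATs with the mean of the members' standardised levels, among 12747 PCGs. The 10 nearest that are no member were the lysosomal aminopeptidase CTSH (0.93), the leukocyte actin bundler LCP1 (0.89), RARRES1 (0.87), the endosomal receptor TLR8 (0.87), the leukocyte lysosomal gene LAPTM5 (0.87), C19orf38 (0.86), the trehalase TREH (0.86), the kinase RPS6KA1 (0.86), the sugar phosphate transporter SLC37A2 (0.85) and the lysosomal nuclease DNASE2 (0.85). Among the members themselves GPNMB (0.93) ranked 1 and LGALS3 (0.92) ranked 3, while CD68 (0.49) ranked 335 and CD9 (0.44) ranked 463.

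The summed macrophage markers were correlated with more members in some ATs than in others. In RAD all 9 members were correlated with the sum (r 0.45 to 0.73), against 6 in MAD, 5 in ULB and 1 in GOM. The limit was an adjusted p under 0.05 by permutation over 252 relations. The share of all PCGs that pass with these library measures was not counted, and the difference between ATs was not tested. The counts are therefore not read as particular to the members. In GOM the median r of the members with the sum was 0.28, with CD68 at -0.22, TREM2 at 0.05 and SPP1 at 0.21. The PCG share of the summed TPM was correlated with 5 members in RAD (r up to 0.64), 2 in MAD, 2 in ULB and 0 in GOM, and the part of these library measures in the pairs was not tested. Without the low-share libraries 123 pairs were again correlated.

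A replicate number with a high level in 1 AT tended to have a high level in the others. Over the numbers that 2 ATs share within WG, 52 of 54 relations of a member between ATs passed at an adjusted p under 0.05 by permutation. The members' median r was 0.44 to 0.65 over the pairs of ATs, against 0.40 to 0.58 over all PCGs, so the members lay close to PCGs in general.

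Hi-C gave the members' chromatin setting in another assay. The A-B index scores each 20-kb bin by whether its contacts are with the active (A, above 0) or inactive (B, below 0) part of the genome, and each gene was given the bin of its start. The bins of the other 9 members were on the A side by their means in each group, that of ATP6V0D2 on the B side, and CD68 was the most A-like, with group means of 5.25 to 6.59 that exceeded 98.6% to 99.7% of bins. The ATP6V0D2 bin lay below 0 in 239 of 240 samples, the other one being a WG ULB sample at 0.299. The bins of SPP1, GPNMB, ACP5, ATP6V0D2, LGALS3 and CD9 overlapped no other gene. That of TREM2 also overlapped TREML1 and TREML2, that of CD68 SENP3, EIF4A1 and MPDU1, that of CTSK ARNT, and that of LIPA IFIT1 and LOC100151816, and 1, 2, 0 and 1 of these genes started there. The annotated LIPA gene spans 123368 bases, and whether its annotated start is the one used in AT was not tested, which bears on its bin, its promoter window and its H3K27ac regions.

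The LGALS3 bin moved furthest toward A with weight gain. Its index had a lowest, median and highest value of 1.91, 3.0 and 3.80 in NC GOM and of 2.42, 4.10 and 6.06 in WG GOM, of 1.21, 2.28 and 2.99 in NC MAD and of 2.17, 3.77 and 5.22 in WG MAD, and of 1.11, 1.97 and 2.80 in NC RAD and of 2.16, 3.61 and 5.21 in WG RAD. Every pair of ranges overlapped. The WG mean exceeded the NC mean by 1.70 ± 0.24 (SE, limma adjusted p 2.91e-06) in RAD, by 1.53 ± 0.24 (adjusted p 1.38e-05) in MAD and by 1.23 ± 0.30 (adjusted p 0.00476) in GOM, and the ULB difference was 1.08 ± 0.61 (adjusted p 0.225). The median over all bins rose by 0.14, 0.05, 0.14 and 0.25, and LGALS3 was called in the 3 visceral ATs also on quantile-normalized values (1.02, 1.26 and 1.49). In RAD it rose again from WG to WL (1.16 ± 0.27, adjusted p 0.00198).

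The ATP6V0D2 bin became less B-like in 2 visceral ATs. From NC to WG its mean index went from -1.72 to -1.22 in MAD (difference 0.50, limma adjusted p 0.0111) and from -1.85 to -1.29 in RAD (0.56, adjusted p 0.00196), and from WG to WL it went from -0.96 to -1.43 in ULB (-0.48, adjusted p 0.0174). The SPP1 bin, in contrast, had group means of 3.67 to 4.31 in all 12 groups, and its differences from NC to WG of -0.11 to 0.34 did not pass the test in any AT.

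Across the 10 members 13 of 40 tests from NC to WG passed, all toward A: 2 in GOM (11% of bins called higher), 6 in MAD (16.5%), 5 in RAD (17.4%) and 0 in ULB (9.72%), where 2 members reached an unadjusted p under 0.05 in limma. In GOM and ULB the members' share was close to that of all bins. Besides LGALS3 and ATP6V0D2 the called bins were those of TREM2 in GOM (0.49) and MAD (0.43), CD68 in MAD (0.64) and RAD (0.42), LIPA in MAD (0.55) and RAD (0.42), GPNMB in MAD (0.59) and ACP5 in RAD (0.49). On quantile-normalized values 6 of the 13 passed. The shares above are over all bins, with or without a gene. On the mean over a gene's bins 4, 8, 7 and 1 of 10 members were called higher in GOM, MAD, RAD and ULB. Of 18705 genes 5006, 7985, 7397 and 1850 were called higher in the same order.

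From WG to WL 8 tests passed toward A and 2 toward B. Those toward A were 2, 2, 3 and 1 of 10 members in GOM, MAD, RAD and ULB, and both toward B were in ULB. TREM2 rose in all 4 ATs (0.66, 0.62, 0.46 and 0.52 in GOM, MAD, RAD and ULB) and ACP5 in the visceral ones (0.51, 0.67 and 0.67), whereas CD68 fell in ULB (-0.66). On quantile-normalized values 5 tests passed toward A and 4 toward B. TREM2 then passed in GOM (0.46) and MAD (0.52) but not in RAD (0.33, limma adjusted p 0.0596) or ULB (0.31, adjusted p 0.124), ACP5 passed in MAD (0.59) and RAD (0.54), LGALS3 in RAD (1.08), and LIPA was lower in GOM (-0.39) and MAD (-0.45). Over all bins 18%, 4.91%, 17.5% and 33.4% were called in either direction without quantile normalization. In GOM and ULB the members' share was close to that of all bins. Between ATs the CD68 index was higher in WG ULB than in WG GOM by 0.88, WG MAD by 0.70 and WG RAD by 0.79. In these comparisons 40.9%, 36% and 37.6% of bins were called higher, and 4, 3 and 3 of 10 members, a similar share. In NC the CD68 mean was 6.31 in ULB and 5.63, 5.25 and 5.38 in GOM, MAD and RAD. In WL it was 5.93 in ULB, 5.84 in GOM and 5.81 in RAD, and higher in MAD than in ULB. Nothing particular to CD68 is therefore read from its WG values.

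**Figure D4:**
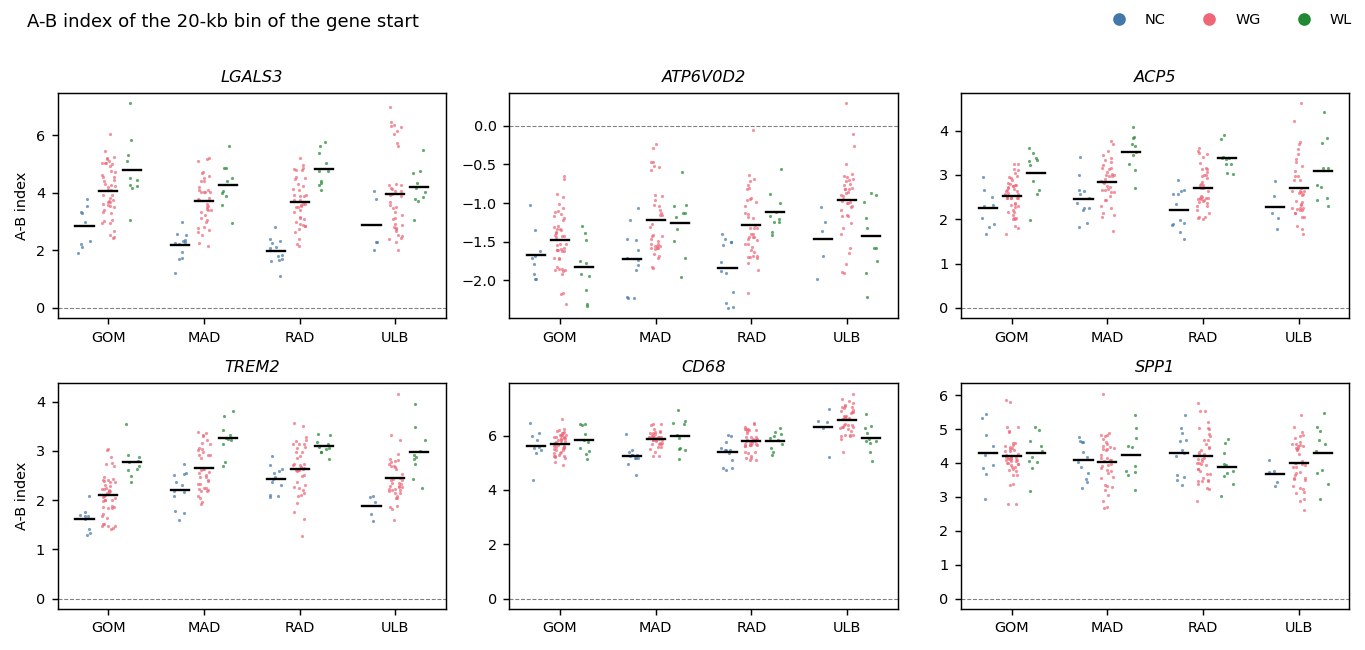
A-B index of the start bins of LGALS3, ATP6V0D2, ACP5, TREM2, CD68 and SPP1, 1 point per Hi-C sample in NC (blue), WG (red) and WL (green) of each AT, with black bars at the group means and a dashed line at 0. LGALS3 means rose from 1.98 to 3.68 in RAD between NC and WG, ATP6V0D2 stayed below 0 in all but 1 sample, and SPP1 means stayed between 3.67 and 4.31.

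H3K27ac, a mark of active promoters and enhancers, was deposited as 18 tables in which the samples of a group or WG subgroup were pooled, 4 for NC, 10 for WG and 4 for WL, so that no test was possible. A region was counted for a member when it came within 10 kb of the gene. ACP5, CD68, LGALS3, CTSK and LIPA had a region in all 18 tables, GPNMB and CD9 in 16, TREM2 in 15, and SPP1 and ATP6V0D2 in 8. The ATP6V0D2 regions were found in 1 of 4 NC, 6 of 10 WG and 1 of 4 WL tables. Those WG tables were all of subgroups 5 and 6, and the tables of subgroups 1 to 4 held none. The paper formed the WG subgroups by clustering samples on their estimated makeup of adipocytes, macrophages and microvascular endothelial cells. Counting only regions that overlap the gene, ATP6V0D2 had one in 0 of 4 NC, 1 of 10 WG and 1 of 4 WL tables, and TREM2 in 6 of 18. The WG table with such an ATP6V0D2 region was that of RAD subgroup 6, which rested on 1 H3K27ac library, as did the NC MAD table.

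Super-enhancers, the top class of stitched regions by signal, made up 1.98% to 6.79% of the regions of a table. LGALS3 was within 10 kb of one in 17 tables, CD9 in 12, CD68 and LIPA in 9, SPP1 in 5 and CTSK in 1, while TREM2, GPNMB, ACP5 and ATP6V0D2 had none. The SPP1 super-enhancers were in 3 WG GOM tables, with H3K27ac over input signal of 1.98 to 2.13, in WL GOM (2.73, rank 966) and in WL MAD (2.5, rank 779). In NC GOM the SPP1 region ranked 1132 among 20169 regions, below the 956 super-enhancers of that table. The number of super-enhancers ran from 503 to 1752 over the tables, with 1442 in WL GOM and 1431 in WL MAD. Rank 1132 would fall within the number of WL GOM, and rank 966 of WL GOM would fall outside that of NC GOM. The presence of the mark therefore depends on each table's cut, and no gain with diet is read from it. CD68 had a super-enhancer in all 4 NC tables, in 3 of 10 WG tables and in 2 of 4 WL tables.

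**Figure D5:**
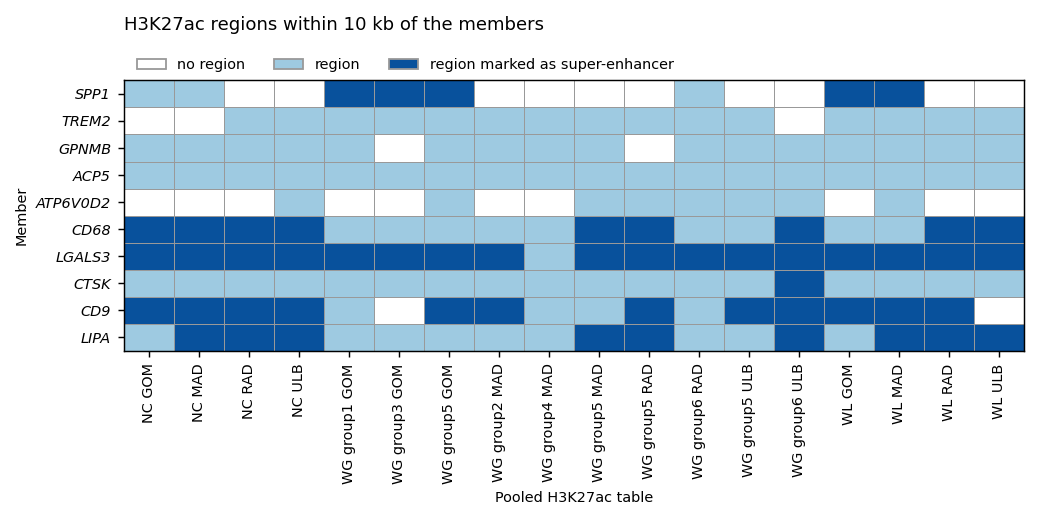
H3K27ac at the 10 members (rows) in the 18 pooled tables (columns, by diet group and AT): white marks no region within 10 kb, light a region and dark a super-enhancer. SPP1 is dark in 5 tables, all of WG GOM, WL GOM and WL MAD, and ATP6V0D2 has a region in 8 and a super-enhancer in none.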

How the data were processed

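Bulk RNA-seq, Hi-C and H3K27ac ChIP-seq of 4 ATs in NC, WG and WL pigs were used. The authors estimated PCG counts and TPM with kallisto 0.43.0 on Sscrofa11.1, and the deposited estimated counts and TPM values are per gene. The deposited A-B index is a score per 20-kb bin, which the authors made from balanced and normalized contact matrices. The deposited H3K27ac and input signal of stitched regions comes from reads that the authors aligned with BWA 0.7.15, filtered with SAMtools 1.3.1, called with SICER and pooled by group. None of the nonzero estimated counts were whole within 1e-09, so they were rounded. Columns of 9 libraries in the expression tables and 9 in the index table matched no sample given and were not used. The depth behind each library is the PCG count given above, and the index and H3K27ac tables carry no depth.

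A PCG was tested when 80% or more of a group's libraries exceeded 0.5 TPM. Its counts were compared with edgeR 4.0.16 (R 4.3.3, TMM, quasi-likelihood test, Benjamini-Hochberg over the PCGs tested), each pair of groups on its own. A call needed a fold change over 1.5 together with an adjusted p under 0.05. The index was compared over 113298 autosomal bins with limma 3.58.1, called at an adjusted p below 0.05. Correlations used TMM log2 CPM and 100000 permutations, 2-sided. DESeq2 1.42.0, no filter on low genes, the low-share libraries left out or as a term, the replicate block, each NC ULB replicate left out, quantile normalization, a minimum index difference of 0.75 and the mean over the bins of a gene were alternatives. The alternative without libraries above 100 TPM of B cell markers was chosen after seeing the data. Scripts were tested on simulated data. All members are named, of each other list at most 4 called genes a direction by size of fold change, and of the genes most like the members the first 10.

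Members and lists were chosen with earlier results of these data known. Where nothing says that samples came from separate animals, p-values measure only the spread between samples. Same-numbered libraries deviated together in WG MAD and WG ULB (30 pairs, median r 0.597) and in WL MAD and WL RAD (10 pairs, 0.384), where every pair's correlation was over 0.1, the criterion used for pairing. The authors' own fold-change and p columns were not used.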

Additional observations from a re-analysis of the deposited data

Results flagged for a closer look

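Of 114 groups of 4 to 10 samples in which 1 value could stand apart, 8 had a highest or lowest sample farther from its neighbour than the usual 95% limit, and chance flags about 1 in 20. In NC GOM replicate 7 held 318 TPM of SPP1 (next 120 TPM) and 1.58 TPM of ATP6V0D2 (next 0.554 TPM), and replicate 8 held 21.3 TPM of TREM2 (next 8.31 TPM). In WL GOM replicate 3 held 44.2 TPM of LGALS3, the lowest, with the next at 96.3 TPM. For the A-B index, NC GOM replicate 2 reached 1.94 at GPNMB (next 1.04), WL GOM replicate 7 reached 3.55 at TREM2 (next 2.91), WL GOM replicate 9 reached 5.53 at CD9 (next 4.90) and WL ULB replicate 5 reached 2.63 at GPNMB (next 1.72).

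The change of ACP5 from WG to WL differed between ATs in the interaction test, by 2.19 for MAD minus GOM, -2.55 for RAD minus MAD and -2.36 for ULB minus MAD on the log2 scale. None of the 3 passed without the libraries rich in B cell markers or without the low-share libraries.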

How the results depend on the processing

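No called value changed its direction in any alternative run, while values that did not pass did in some, such as CD68 from WG to WL in MAD (0.14, and -0.20 without the libraries rich in B cell markers), SPP1 in the difference of that change for ULB minus GOM (0.34, and -0.67 without the low-share libraries) and the members' median index difference from WG to WL in GOM (0.05, and -0.13 on quantile-normalized values). From WG to WL DESeq2 called 2 members instead of 1, and without the low-share libraries ACP5 in MAD had a log2 fold change of 1.53 and did not pass. Between ATs 12 member tests passed without the low-share libraries instead of 23, which leaves fewer samples. The count of ACP5 differences between ATs fell from 3 to 0 without the low-share libraries and to 0 without the libraries rich in B cell markers. On the mean over a gene's bins 20 index tests passed from NC to WG instead of 13, beside the counts over all genes given above. Of the 13, 6 passed on quantile-normalized values and 3 with a difference of at least 0.75. With that minimum 1 index test was called from WG to WL instead of 10 and 7 between ATs instead of 32. The cause of these shifts was not tested.

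With the replicate block 30 member tests passed between ATs instead of 23, and 27 index tests instead of 32. Every same-numbered pair correlated above 0.1 in WG MAD with WG ULB and in WL MAD with WL RAD, whose blocked values stand beside the results. In the other WG pairs of ATs all but 1 or 2 pairs did, with median r of 0.56 to 0.64 against -0.08 to -0.03 for other numbers, a hint from the data that the numbers mark pigs. There the block added ATP6V0D2, higher in RAD than in GOM (0.67, edgeR adjusted p 0.036), and SPP1, lower in ULB than in RAD (-0.63, adjusted p 0.00643). The interaction model had no block. Leaving out each NC ULB replicate in turn gave 20 to 23 member calls between ATs, 19 from NC to WL, 19 from NC to WG and 13 index calls from NC to WG. Counting a single-gene result once for each alternative, 288 kept their side of the threshold and 71 lost it. TPM near 0 limits ATP6V0D2 in the visceral ATs of NC, and 5 NC ULB libraries limit that AT.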
